A study of Scomber scombrus with 32 samples.

Results

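A set of 100 genes lay lower in serum starvation than in any other culture state of the mackerel muscle cell line Mack1, both after immortalization (p77) and before it (p27). The genes were chosen on these libraries, so their low level in starvation is a description and not a result. Group means of the deposited normalized counts were used, and a gene needed a mean of at least 100 in serum reduction, lipid loading and proliferation at both stages. Of 24189 genes counted, 9063 met that minimum, 1 was left out by the rule, and the other 9062 are called the ranked genes below. They were ordered by the highest of 6 values, the log2 ratios of starvation over each of the other 3 states at each stage with 1 added to each mean, and the 100 with the most negative value were taken. All 6 ratios were below 0 in 989 ranked genes. All 100 chosen genes are protein coding, 71 carry a gene symbol and 29 a locus number alone.

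Serum feeds cultured cells with growth factors, hormones and lipids. Muscle precursors leave the cell cycle and fuse when serum and growth factors are withdrawn, while fibroblasts answer serum by building actin filaments and secreting collagen. Actin genes of the smooth muscle type are switched by serum response factor, the collagen chaperone Hsp47 works in the endoplasmic reticulum, and glycolysis turns glucose into pyruvate and lactate. Genes of all 3 kinds stand among the 100, together with growth factor, receptor and matrix genes.

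The series holds 32 RNA libraries of 2 continuous lines grown from Atlantic mackerel muscle, Mack1 and Mack2, which the labels call muscle stem cells (1 library says satellite cell). Mack1 was taken at p77, labelled after immortalization, and at p27, labelled before it, in 4 states with 3 libraries each. In serum starvation confluent cells were no longer fed, in serum reduction confluent cells were fed medium with 2.5% serum, and in lipid loading confluent cells were fed growth medium with insulin, IBMX, dexamethasone and a lipid mixture. Proliferating cultures received growth medium containing 20% serum plus the growth factor FGF2. Mack2 was taken in proliferation alone, at p180 after immortalization and at p2 before it, with 4 libraries each. Starvation thus lacked the fresh medium, and with it the new serum and any growth factor, that the other states received. No serum percent is given for the starved cultures. Proliferating cultures are not described as confluent, so these differences cannot be told apart. Each line is a single culture lineage, no label says how many fish stand behind it, and the libraries are called experimental replicates, so p-values measure only the spread between these libraries, which may be technical.

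The libraries held 16.9 to 32.0 M counts, and every pair of replicates differed by more than counting error (chi-square per degree of freedom 3.25 to 84.1). The highest value belonged to p77 starvation, in which replicate 1 stood apart from the other 2 libraries. That library was the lowest of the 3 in 41 of the 100 genes, and none of the folds below the closest p77 state moved by more than 1.5 times without it. Summed over 7 muscle markers, the level was 6420 to 6579 CPM (counts scaled by the library total) in p77 starvation, against 7470 to 7909 in reduction, 2800 to 3107 in lipid loading and 96.4 to 105 in proliferation, and 5383 to 5663 in p27 starvation, against 4769 to 5737 in reduction, 1062 to 1184 in lipid loading and 161 to 190 in proliferation. Of these markers myod1 was found in each Mack1 group (means of 21.3 to 69.7 CPM), myf5 was at 0 in proliferation at both stages, myog was at 0.17 CPM in p77 proliferation and 1.89 in p27 proliferation, and pax7a, which marks satellite cells, stayed at 0 to 1.35 CPM. The summed level of 4 measured fibroblast markers, mostly col1a1a, was 3402 to 5177 CPM in p77 starvation, against 6641 to 6930 in reduction, 8715 to 9569 in lipid loading and 3337 to 3541 in proliferation. At p27 it was 1667 to 1937 CPM in starvation, against 6919 to 8543 in reduction, 10436 to 10926 in lipid loading and 2343 to 2538 in proliferation. The markers did not move together: pdgfra was at 61.0 CPM in p77 starvation, against 12.0 in reduction, and at 17.4 in p27 starvation, against 0.80 in reduction, and dcn at 457 CPM in p77 starvation, against 477 in reduction. The part of a changing share of fibroblast-like cells in the results was not tested, and in bulk RNA fewer cells of a type and less RNA per cell cannot be told apart. Summed endothelium markers reached at most 35.2 CPM and summed blood and immune markers at most 2.49 CPM in any group, nerve, glia and epithelium sums were lower still, and red blood cell markers were at 0.

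Together the 100 genes held 0.679 to 0.727% of all counts in p77 starvation, against 1.30 to 1.39% in reduction, 2.47 to 2.56% in lipid loading and 3.03 to 3.14% in proliferation. At p27 they held 0.717 to 0.741% in starvation, against 2.20 to 2.58% in reduction, 3.61 to 3.74% in lipid loading and 3.43 to 3.57% in proliferation. The median log2 ratio of starvation over proliferation was -1.93 at p77 and -2.05 at p27, over lipid loading -1.35 at p77 and -1.87 at p27, and over reduction -0.87 at p77 and -1.49 at p27. The same medians over all ranked genes lay between -0.04 and 0.01. Without p77 starvation replicate 1 the p77 medians were -1.87 over proliferation, -1.41 over lipid loading and -0.92 over reduction.

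The starvation libraries of 99 genes lay below all libraries of the other 3 states at p77, and those of 100 genes at p27. Both held in 99 genes, and in 3.26% of the ranked genes, a share from which nothing is read because the rule chose on these values. The exception was si:dkey-97m3.1, in which p77 starvation replicate 1 reached 324 normalized counts, and 100 genes lay below at p77 without that library. The state closest above starvation was reduction in 64 genes, lipid loading in 22 and proliferation in 14 at p77, and reduction in 54, lipid loading in 23 and proliferation in 23 at p27. Starvation lay below that closest state by a median of 1.78-fold (range 1.48 to 12.5) at p77 and 2.43-fold (range 1.49 to 22.4) at p27.

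The first gene, acta2, had a highest log2 ratio of -2.18. The last genes inside the limit were uevld at -0.574 and kank3 at -0.569, and the first outside were stk17b at -0.567 and LOC133983259 at -0.566, so the limit falls in a continuous run of values. When the rule was applied with 1 replicate number of each group left out, 90, 97 and 96 of the 100 genes then chosen were lowest in starvation at both stages in the libraries left out (replicates 1, 2 and 3), against 9.45, 13.1 and 12.2% of the ranked genes. Of those choices 81, 88 and 86 genes were among the 100 described here. The libraries left out are replicates of the same states in the same lineage, so these counts describe agreement between replicates alone.

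**Figure D1:**
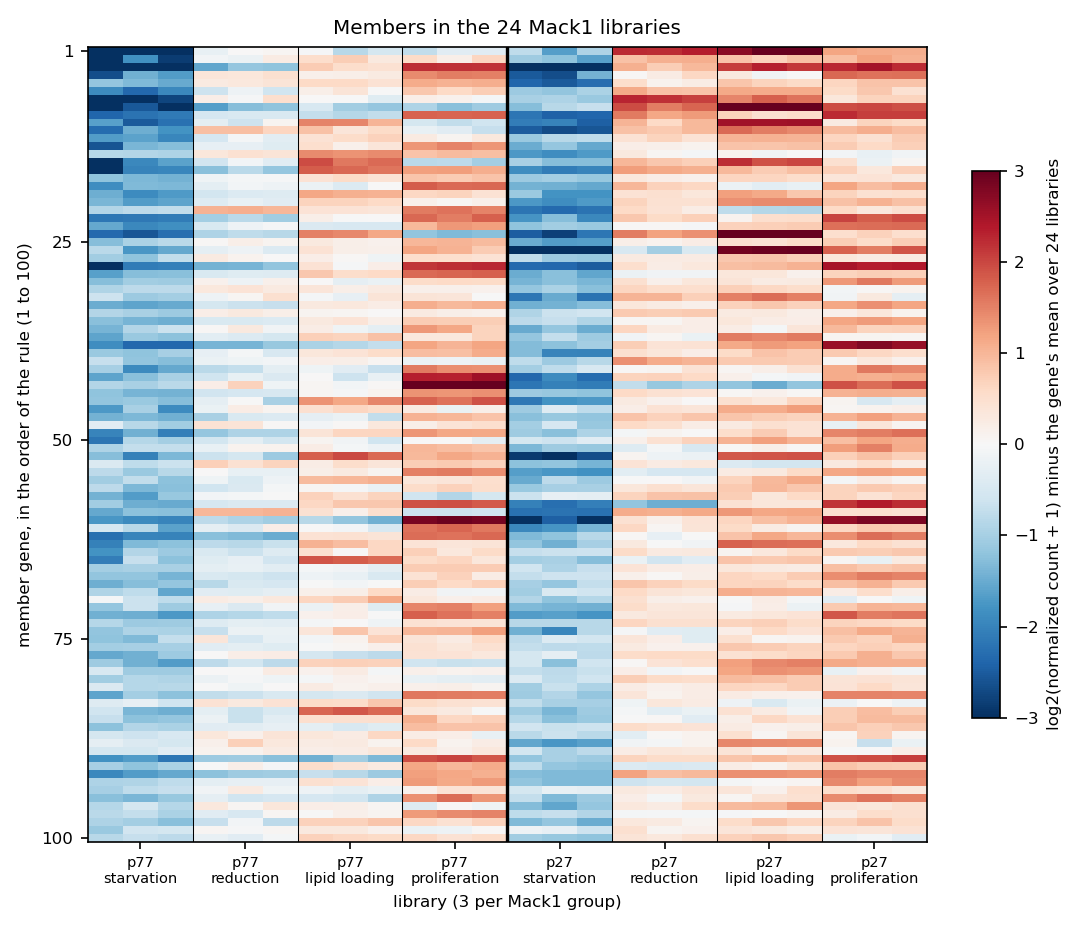
Each row is 1 of the 100 genes in the order of the rule and each column 1 of 24 Mack1 libraries, with p77 on the left and p27 on the right. Colour gives log2(normalized count + 1) minus the gene's mean over the 24 libraries, from -3 (blue) to 3 (red); the starvation columns are blue in nearly every row at both stages, while the red columns change from gene to gene.

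The genes calua, tktb, pck2, plat, apaf1, cdkn2a/b, fgf2, fgfr1a and nudt6 were picked for description after their values were seen, and the other genes by the naming rule given with the methods. Levels are normalized counts, which are not scaled by gene length and are compared within a gene alone.

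The contractile and actin-bound genes described first held places 1 (acta2), 8 (filip1l) and 15 (csrp2) in the order. acta2 encodes smooth muscle alpha actin. It had 10.4, 22.2 and 38.1 in starvation, against 343, 406 and 417 in reduction, 390.4, 225 and 281 in lipid loading and 242, 320.0 and 319.8 in proliferation at p77, all in normalized counts. Its p27 libraries had 239, 128 and 212 in starvation, against 1901, 1874 and 2053 in reduction, 2619.8, 3375 and 3240.5 in lipid loading and 921, 869 and 854 in proliferation. No starvation library of acta2 reached a library of another state at its stage, and the p77 starvation mean lay 12.5-fold below proliferation, the closest state, against 4.56-fold at p27 (9.75-fold at p77 without replicate 1). The highest acta2 levels moved with the stage: lipid loading exceeded proliferation at p27 (log2 fold change 1.75 ± 0.19, adjusted p = 6.25e-09), while at p77 the difference was -0.01 ± 0.20 (adjusted p = 0.96), and the difference between the stages was -1.76 ± 0.27 (adjusted p = 1.86e-05).

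csrp2 encodes a LIM-domain protein of the actin cytoskeleton. It had 89.3, 279.6 and 352 in starvation, against 723, 1012 and 852 in reduction, 4125, 3201 and 3482 in lipid loading and 607, 622 and 523 in proliferation at p77. The p27 values were 545, 439 and 443 in starvation, against 2118, 1881 and 1756 in reduction, 4935, 4012 and 4329 in lipid loading and 1501, 944 and 1112 in proliferation. Replicate 1 of p77 starvation lay lowest, and the groups did not overlap. The p77 starvation mean lay 2.43-fold below the closest state, and 1.85-fold without that replicate. Lipid loading gave the highest csrp2 libraries at both stages, with 2.58 ± 0.25, adjusted p = 5.58e-10 against proliferation at p77 and 1.84 ± 0.24, adjusted p = 1.47e-07 at p27. In reduction csrp2 was 0.54 ± 0.24 above proliferation at p77 with an adjusted p of 0.0495, a call that 8 of the alternative settings did not keep.

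filip1l, named for its likeness to the gene of a protein that binds filamin A, had 44.6, 60.5 and 33.6 in starvation, against 114, 148 and 155 in reduction, 256, 175 and 161 in lipid loading and 188, 149 and 172 in proliferation at p77. Libraries of p27 gave 147, 200.3 and 221 in starvation, against 1394, 1045 and 1216 in reduction, 3881, 4506 and 4299 in lipid loading and 1389, 1449 and 1374 in proliferation. At p27 every lipid loading library lay above every proliferation library, and at p77 these groups overlapped. A list of 46 tested actin and serum response factor genes, 41 of them ranked genes, holds these 3 genes. Over all 15683 genes tested, starvation was higher in 35.5% and lower in 31.5% against proliferation at p77, and in 34.3 and 30% at p27. Against lipid loading it was higher in 25.7% and lower in 26.8% at p77 and in 31.1 and 30.1% at p27, and against reduction in 14.4 and 15.5% at p77 and in 17.9 and 19.9% at p27. Of its other 43 genes, starvation was higher in 10 and lower in 30 against proliferation at p77, and higher in 7 and lower in 30 at p27. Against lipid loading the counts were 13 higher and 21 lower at p77, and 7 and 32 at p27. Against reduction they parted: 17 higher and 9 lower at p77, and 5 higher and 26 lower at p27, with list medians of 0.15 and -0.35 and medians over all genes tested of 0.00 at both stages. Among the list genes named by the rule, the integrin itgb1a was lower in starvation than in reduction at both stages (-0.34 ± 0.08, adjusted p = 0.00311, at p77 and -1.11 ± 0.09, adjusted p = 5.84e-11, at p27). Smoothelin smtnb was lower at p27 (-1.39 ± 0.13, adjusted p = 1.18e-09), and at p77 its difference was 0.15 ± 0.14, adjusted p = 0.454. Calponin cnn2 was higher in starvation than in reduction at both stages (1.27 ± 0.09, adjusted p = 1.49e-11, at p77 and 0.35 ± 0.08, adjusted p = 0.00171, at p27).

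mlphb, whose mammalian counterpart melanophilin ties melanosomes to myosin, followed acta2 most closely of all tested genes over the 24 libraries (Pearson r of log2 values 0.960, a description over libraries that share states and depth). Next came LOC133991064 (0.944, also among the 100), LOC133982331 (0.937), versican vcanb (0.919) and tmtc4 (0.912). mlphb had 9.34, 6.82 and 20 in starvation, against 161, 136 and 197 in reduction, 142, 139 and 107 in lipid loading and 161, 152 and 134 in proliferation at p77. Before immortalization, at p27, it had 70.5, 72.9 and 64.3 in starvation, against 682, 639.6 and 582 in reduction, 389, 489 and 436 in lipid loading and 178, 223 and 222 in proliferation. Here reduction gave the highest libraries at p27, and the 3 fed states overlapped at p77.

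**Figure D2:**
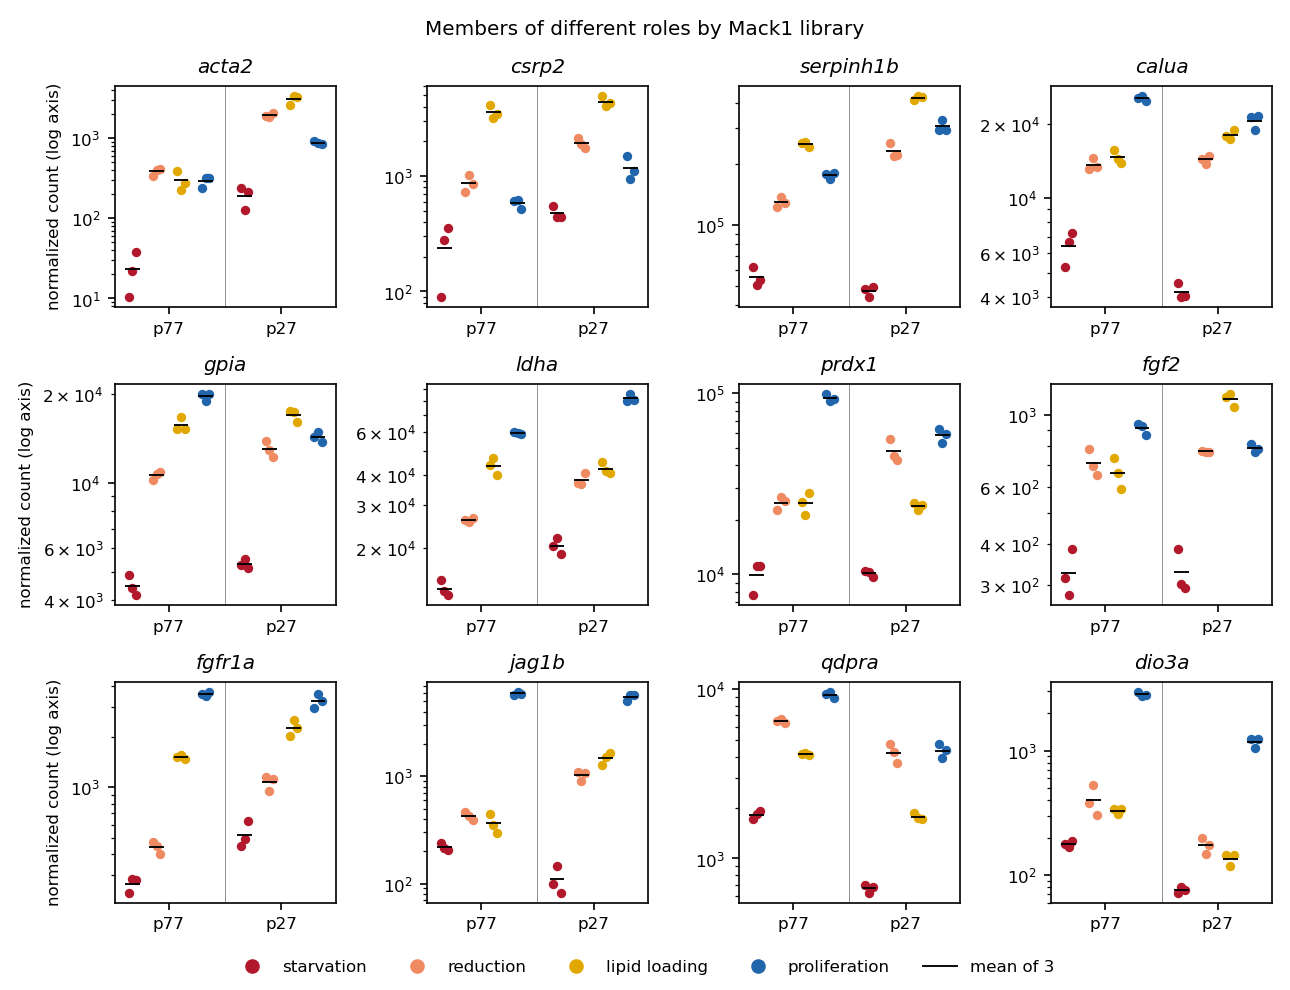
Normalized counts (log axis, a separate scale in each panel) of 12 of the genes in every Mack1 library, with p77 left of p27 and the states starvation, reduction, lipid loading and proliferation from left to right; bars mark the mean of 3 libraries. The red starvation points lie lowest in each panel, and the order of the other 3 states differs between genes, with lipid loading highest for csrp2 and serpinh1b and proliferation highest for ldha, fgfr1a, jag1b and dio3a.

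Genes of the secretory pathway were spread over the order, with tmem38b at place 4, serpinh1b at 20, calua at 25 and copz2 at 89. The collagen processing list gave 1 of its 21 ranked genes and the list of transport between endoplasmic reticulum and Golgi 1 of 45. Lists of endoplasmic reticulum chaperones (38 ranked genes), translocation (23), N-glycosylation (28) and degradation and stress response (25) gave 0. Over all genes 100 of 9062 were chosen, so these counts do not show such genes to be frequent among the 100. serpinh1b encodes Hsp47, the chaperone that binds procollagen, and had 61928, 50456 and 53612 in starvation, against 122980, 136880 and 127540 in reduction, 253870, 256080 and 241340 in lipid loading and 176990, 168420 and 179580 in proliferation at p77. At p27 it had 48351, 43940 and 49579 in starvation, against 253740, 219020 and 221950 in reduction, 412260, 431090 and 426850 in lipid loading and 293110, 328620 and 294060 in proliferation. The 4 states did not overlap at either stage, and their order was starvation, reduction, proliferation and lipid loading at p77, with the same order at p27. Reduction lay below proliferation at both stages (-0.46 ± 0.08, adjusted p = 6.9e-06, at p77 and -0.45 ± 0.08, adjusted p = 1.24e-05, at p27), and lipid loading above it (0.48 ± 0.08, adjusted p = 4.83e-06, and 0.42 ± 0.08, adjusted p = 3.18e-05).

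calua encodes calumenin, a calcium-binding protein of the endoplasmic reticulum. It had 5294, 6652 and 7235 in starvation, against 13047, 14485 and 13410 in reduction, 15570, 14376 and 13880 in lipid loading and 25295, 25808 and 24717 in proliferation at p77. Its p27 libraries had 4541, 3986 and 4033 in starvation, against 14398, 13782 and 14773 in reduction, 17736, 17342 and 18823 in lipid loading and 21340, 18774 and 21436 in proliferation. Starvation lay lowest and proliferation highest by their means, and lipid loading overlapped reduction at p77 and proliferation at p27. tmem38b, an ion channel gene of the endoplasmic reticulum whose human loss leads to brittle bones, averaged 54.2 ± 21.5 in p77 starvation, against 259 ± 14 in reduction, 227 ± 8.44 in lipid loading and 556 ± 21.3 in proliferation (SD, n = 3 each). At p27 its means were 45.7 ± 23.8 in starvation, 246 ± 52.1 in reduction, 207 ± 30.1 in lipid loading and 630.0 ± 23.1 in proliferation. It fell in lipid loading against proliferation (-1.33 ± 0.22, adjusted p = 5.58e-06, at p77 and -1.66 ± 0.22, adjusted p = 2.48e-07, at p27).

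copz2, a subunit of the coat of transport vesicles, averaged 1050.5 ± 79 in p77 starvation, against 1606 ± 85.7 in reduction, 1729.9 ± 94.8 in lipid loading and 1716 ± 105 in proliferation. A list of 25 collagen processing genes, 21 of them ranked genes, holds serpinh1b. Of its other 24, starvation was higher in 8 and lower in 16 against proliferation at p77 and higher in 6 and lower in 14 at p27. Against lipid loading it was higher in 2 and lower in 17 at p77, and higher in 1 and lower in 21 at p27. Against reduction it was higher in 9 and lower in 3 at p77, and higher in 3 and lower in 14 at p27, with medians of 0.17 at p77 and -0.42 at p27. Without p77 starvation replicate 1 it was higher than reduction in 7 and lower in 5 at p77.

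The duplicate serpinh1a fell in starvation against reduction at p27 (-0.77 ± 0.07, adjusted p = 1.91e-09), and at p77 its difference was -0.17 ± 0.07, adjusted p = 0.0714. Reads shared by such fish duplicates may be split between them. Of the 46 other genes in a list of transport between endoplasmic reticulum and Golgi, 9 were lower and 5 higher in starvation than in reduction at p77, and 29 lower and 0 higher at p27, with medians of -0.0002 and -0.40. Without p77 starvation replicate 1, 10 were lower and 2 higher at p77. Against proliferation 40 were lower at each stage, with 3 higher at p77 and 4 at p27. A list of 40 chaperones of the endoplasmic reticulum, with no gene among the 100, gave 2 lower and 12 higher against reduction at p77 and 23 lower and 1 higher at p27, with medians of 0.10 and -0.34. Against lipid loading 36 of the 40 were lower at p77 and 38 at p27.

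The glycolysis list gave 4 of the 100 genes from 33 tested, of which 22 were ranked genes and so could be chosen. Over all genes 100 of 9062 ranked genes were chosen. gpia, a glucose-6-phosphate isomerase, had 4872, 4399 and 4162 in starvation, against 10207, 10751 and 10899 in reduction, 15222, 16695 and 15201 in lipid loading and 20030, 18971 and 20089 in proliferation at p77. The p27 values were 5258, 5514 and 5129 in starvation, against 13929, 12913 and 12216 in reduction, 17539, 17438 and 16081 in lipid loading and 14316, 14916 and 13742 in proliferation. The 4 states did not overlap at p77, where proliferation was highest, and at p27 the highest libraries were those of lipid loading. Lipid loading was below proliferation at p77 (-0.37 ± 0.07, adjusted p = 4.77e-05) and above it at p27 (0.19 ± 0.07, adjusted p = 0.0183), and the difference between the stages was -0.56 ± 0.10, adjusted p = 0.0001.

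eno1b, an enolase, spanned the widest range of the 4. It had 145, 279 and 289.7 in starvation, against 448, 459.9 and 528 in reduction, 1622, 1181 and 1375 in lipid loading and 5354, 5574 and 5813 in proliferation at p77. Libraries of p27 gave 237, 234 and 214 in starvation, against 1707, 1406 and 1487 in reduction, 2263, 2338 and 2465 in lipid loading and 6668, 6123 and 6314 in proliferation. Reduction against proliferation was -3.56 ± 0.16 at p77 (adjusted p = 3.97e-17) and -2.10 ± 0.15 at p27 (adjusted p = 9.54e-13), a difference between stages of -1.46 ± 0.20, adjusted p = 4.69e-06. The order of the 4 states was starvation, reduction, lipid loading and proliferation at both stages, with no overlap.

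ldha, which makes lactate from pyruvate, had 14807, 13388 and 12912 in starvation, against 26026, 25620 and 26725 in reduction, 43687, 46819 and 39909 in lipid loading and 59818, 59274 and 58931 in proliferation at p77. Before immortalization, at p27, it had 20525, 21972 and 18975 in starvation, against 36902, 36833 and 40670 in reduction, 45015, 41330 and 40852 in lipid loading and 80107, 85618 and 80946 in proliferation. The 4 states did not overlap, and reduction and lipid loading came closest at p27, where their difference was 0.14 ± 0.07, adjusted p = 0.0917. pfkpa, a phosphofructokinase subunit, had 458, 395 and 472 in starvation, against 901, 1028 and 894 in reduction, 1300.2, 1191 and 1097 in lipid loading and 2017, 1816 and 1971 in proliferation at p77. At p27 it had 533, 404 and 387 in starvation, against 685, 655 and 673 in reduction, 1063, 979 and 1146 in lipid loading and 1641, 1540.5 and 1521 in proliferation. Its starvation libraries lay below the rest at both stages, with p27 reduction 1.52-fold above starvation as the smallest gap among these 4 genes.

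The other 29 glycolysis genes did not follow as one. Against reduction 14 were lower and 2 higher in starvation at p77 and 15 lower and 3 higher at p27, where the lower share exceeds that of all genes and the higher share does not. Against lipid loading 18 were lower and 2 higher at p77, and 17 lower and 6 higher at p27. Against proliferation they split into 12 lower and 16 higher at p77 and 12 lower and 15 higher at p27. Their medians against proliferation were 0.60 at p77 and 0.27 at p27, against reduction -0.39 and -0.51, and against lipid loading -0.69 and -0.31, while the medians over all genes tested ranged from -0.03 to 0.08.

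The genes far above proliferation included copies known from skeletal muscle, which were singled out here after their values were seen. gapdh averaged 16806 normalized counts in p77 starvation, against 62996 in reduction, 57119 in lipid loading and 13.4 in proliferation. It averaged 2144 in p27 starvation, against 6885 in reduction, 12657 in lipid loading and 21.9 in proliferation. It was lower in starvation than in reduction (-1.90 ± 0.19, adjusted p = 1.89e-08, at p77 and -1.64 ± 0.19, adjusted p = 1.29e-07, at p27). The muscle enolase eno3 was lower too (-2.77 ± 0.22, adjusted p = 2.19e-10, at p77 and -3.01 ± 0.22, adjusted p = 3.41e-11, at p27). Sarcomere genes together held 3.21 to 4.0% of counts in p77 starvation, against 4.25 to 4.44% in reduction, and 3.06 to 3.22% in p27 starvation, against 2.63 to 3.44% in reduction. Of the genes the list rule named, the pyruvate kinase pkmb did not pass between starvation and reduction (-0.44 ± 0.25, adjusted p = 0.197, at p77 and -0.55 ± 0.25, adjusted p = 0.0859, at p27).

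**Figure D3:**
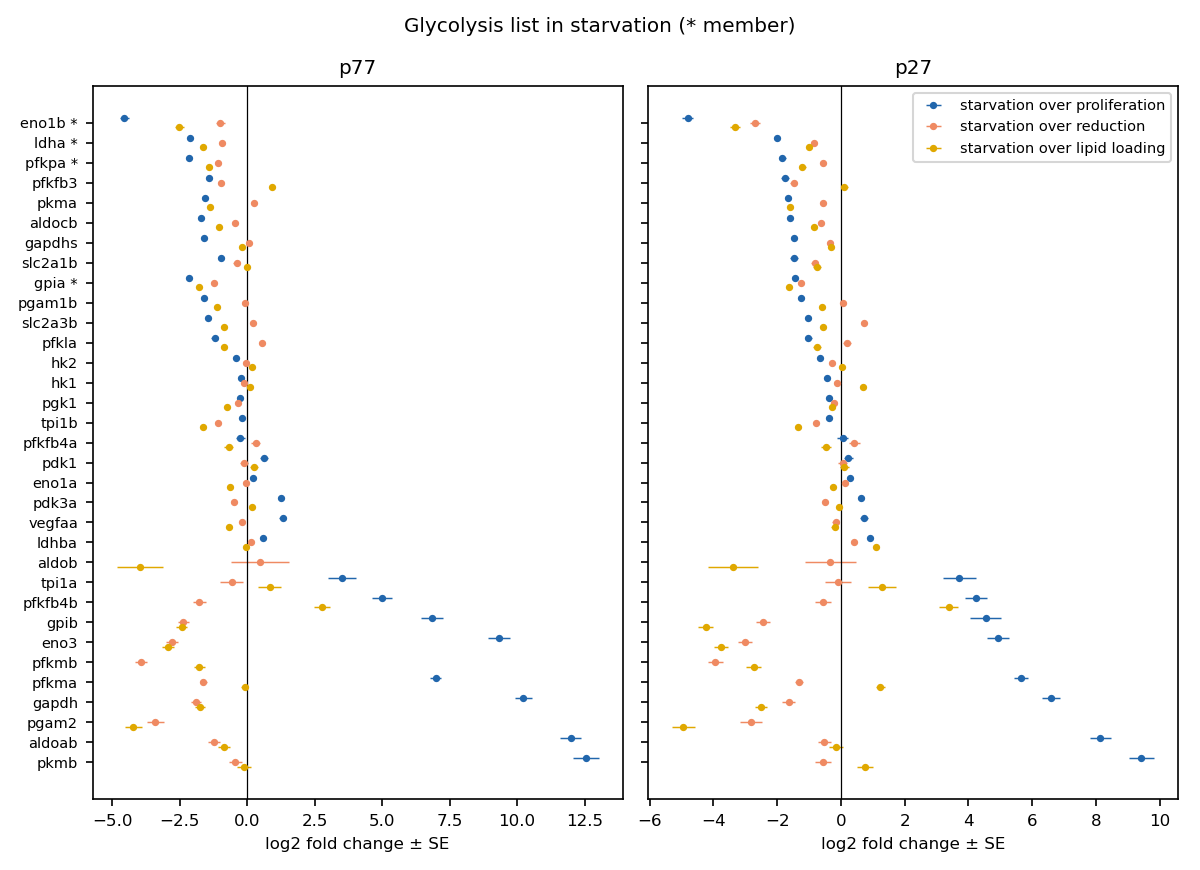
Log2 fold change ± SE of starvation over each other state for the 33 tested genes of the glycolysis list, with p77 on the left and p27 on the right; an asterisk marks the 4 genes among the 100, which were chosen on these ratios. Points whose groups include a mean under 1 normalized count are not drawn. Genes near the bottom, such as gapdh and eno3, lie far right of 0 against proliferation and left of 0 against reduction and lipid loading.

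Other metabolic genes were spread along the order. tktb, a transketolase of the pentose phosphate pathway, averaged 4979 ± 411 in p77 starvation, against 8804 ± 322 in reduction, 12971 ± 556 in lipid loading and 32127 ± 558 in proliferation. At p27 it averaged 5719 ± 230 in starvation and 26380 ± 315 in proliferation. Reduction (17722 ± 1174) lay above lipid loading (13241 ± 534) in tktb at p27, the reverse of p77. prdx1, a peroxiredoxin that removes hydrogen peroxide, had 7681, 11138 and 11054 in starvation, against 22724, 26563 and 25237 in reduction, 24979, 21180 and 28057 in lipid loading and 99230, 90849 and 93116 in proliferation at p77. Its p27 libraries had 10424, 10243 and 9656 in starvation, against 55619, 45073 and 42998 in reduction, 24726, 22557 and 24188 in lipid loading and 63718, 52917 and 59797 in proliferation. Lipid loading lay below reduction at p27 (-1.02 ± 0.12, adjusted p = 9.65e-08) but not detectably at p77 (-0.03 ± 0.12, adjusted p = 0.858). prdx1 overlaps 6 annotated genes, whose mean levels in Mack1 ran from 1.6 to 2934. In these libraries without strand, reads from any stretch they share with prdx1 cannot be told apart.

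qdpra, which regenerates the cofactor tetrahydrobiopterin, had 1704, 1838 and 1899 in starvation, against 6480.1, 6671 and 6318 in reduction, 4155, 4195 and 4072 in lipid loading and 9315, 9669 and 8849 in proliferation at p77. The p27 values were 693, 627 and 678 in starvation, against 4737, 4239 and 3686 in reduction, 1846, 1726 and 1699 in lipid loading and 4729, 3922 and 4354 in proliferation. Its levels were higher at p77 than at p27 in each state, and lipid loading lay below reduction at both stages (-0.67 ± 0.09, adjusted p = 2e-07, at p77 and -1.27 ± 0.09, adjusted p = 1.77e-12, at p27). nampt2, of the NAD salvage pathway, also fell in lipid loading against reduction (-0.28 ± 0.10, adjusted p = 0.0191, at p77 and -0.83 ± 0.10, adjusted p = 8.48e-08, at p27), and pck2, which makes phosphoenolpyruvate in mitochondria, averaged 74.5 ± 18.2 in p77 starvation, against 131 ± 11.9 in reduction, 389 ± 37.1 in lipid loading and 609 ± 42.7 in proliferation.

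dio3a, which inactivates thyroid hormone, was highest in proliferation. It had 179, 167 and 189 in starvation, against 379, 529 and 302 in reduction, 341, 310.1 and 338 in lipid loading and 2978, 2772 and 2793 in proliferation at p77. Libraries of p27 gave 72.1, 79.9 and 76.4 in starvation, against 197, 148 and 174 in reduction, 145, 118 and 144 in lipid loading and 1248, 1046 and 1238 in proliferation. All proliferation libraries lay above those of the other states at both stages. Reduction and lipid loading overlapped at p77 and nearly met at p27. dio3a fell in reduction against proliferation (-2.84 ± 0.14, adjusted p = 6.85e-16, at p77 and -2.81 ± 0.15, adjusted p = 2.71e-15, at p27) and in lipid loading (-3.15 ± 0.14, adjusted p = 1.31e-16, and -3.17 ± 0.15, adjusted p = 7.02e-16). atp1a3b, a subunit of the sodium pump, fell in reduction too (-2.37 ± 0.10, adjusted p = 2.99e-17, at p77 and -3.67 ± 0.11, adjusted p = 1.3e-20, at p27).

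Among ligands and receptors, jag1b encodes Jagged1, a ligand that activates Notch on the neighbouring cell, and had 241, 214 and 203 in starvation, against 468, 425 and 392 in reduction, 449, 352 and 297 in lipid loading and 5792, 6171 and 5905 in proliferation at p77. Before immortalization, at p27, it had 100.1, 146 and 82 in starvation, against 1103, 899 and 1076 in reduction, 1269, 1505 and 1652 in lipid loading and 5037, 5698 and 5724 in proliferation. Proliferation lay highest at both stages, above reduction and lipid loading, which overlapped each other at p77 alone. The change against proliferation was steeper at p77, with -3.81 ± 0.15 in reduction and -4.06 ± 0.15 in lipid loading, against -2.47 ± 0.14 in reduction and -1.95 ± 0.14 in lipid loading at p27. The differences between the stages were -1.35 ± 0.19, adjusted p = 6.3e-06, in reduction and -2.11 ± 0.19, adjusted p = 3.24e-09, in lipid loading. Of the 19 other tested Notch genes, starvation was higher in 12 and lower in 5 against proliferation at p77 and higher in 9 and lower in 4 at p27. Against reduction 6 were higher and 2 lower at p77 and 7 and 3 at p27, with medians of 0.14 and 0.15. Against lipid loading 7 were higher and 4 lower at p77 and 7 and 7 at p27, with medians of -0.06 and 0.13.

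fgf2, which encodes the growth factor also supplied as human protein in growth medium, had 316, 279.6 and 387 in starvation, against 783, 694 and 654 in reduction, 738, 663 and 589.6 in lipid loading and 939.5, 921 and 869 in proliferation at p77. At p27 it had 387, 303 and 294 in starvation, against 775, 769 and 770.2 in reduction, 1137, 1159 and 1056 in lipid loading and 813, 769 and 783 in proliferation. Lipid loading exceeded proliferation at p27 (0.45 ± 0.11, adjusted p = 0.00136) and lay below it at p77 (-0.50 ± 0.11, adjusted p = 0.000476), with a difference between the stages of -0.94 ± 0.16, adjusted p = 7.5e-05. nudt6, the gene beside fgf2 on chromosome 9, is also among the 100 and averaged 149 ± 38.4 in p77 starvation, against 300.2 ± 42.5 in reduction, 261 ± 38.2 in lipid loading and 315 ± 36.9 in proliferation. Both overlap afg2a in the annotation, and reads from any stretch shared by overlapping genes cannot be told apart here.

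fgfr1a, an FGF receptor, had 236, 283 and 281 in starvation, against 474, 450.1 and 401 in reduction, 1514, 1551 and 1466 in lipid loading and 3584, 3505 and 3711 in proliferation at p77. Its p27 libraries had 448, 492 and 629 in starvation, against 1155, 952 and 1120 in reduction, 2026, 2531 and 2247 in lipid loading and 2975, 3595 and 3279 in proliferation. The states kept the order starvation, reduction, lipid loading and proliferation at both stages without overlap. Reduction was -3.04 ± 0.12, adjusted p = 3.68e-18, against proliferation at p77 and -1.66 ± 0.11, adjusted p = 6.53e-13, at p27. unc5db, a netrin receptor gene, averaged 182 ± 31.1 in p77 starvation, against 305 ± 22.6 in reduction, 278 ± 40.8 in lipid loading and 2589 ± 153 in proliferation. plxnb1b, a receptor for semaphorins, was one of the few genes above proliferation in reduction at p77 (0.59 ± 0.16, adjusted p = 0.00218), and in lipid loading it rose by 1.23 ± 0.16 (adjusted p = 1.75e-07).

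Secreted and matrix genes included chrd, which encodes the BMP antagonist chordin and ranked sixth. It averaged 117 ± 20.2 in p77 starvation, against 357 ± 70.8 in reduction, 555 ± 74.6 in lipid loading and 799 ± 59.2 in proliferation. It averaged 229.9 ± 19.8 in p27 starvation, against 946 ± 106 in reduction, 1053 ± 11.2 in lipid loading and 748 ± 93.3 in proliferation. Proliferation was thus the highest state at p77 and the lowest fed state at p27, and lipid loading lay below proliferation at p77 (-0.57 ± 0.13, adjusted p = 0.000551) and above it at p27 (0.44 ± 0.13, adjusted p = 0.00538).

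c1qtnf5, a secreted protein with a C1q domain, fell in reduction and lipid loading against proliferation at both stages and averaged 279 ± 23 in p77 starvation, against 950.5 ± 24 in reduction, 774 ± 43.9 in lipid loading and 4483 ± 47.9 in proliferation. It lies 1 gene away from mcamb, a cell adhesion gene also among the 100. timp2a, an inhibitor of matrix metalloproteinases, averaged 829 ± 112 in p77 starvation, against 1254 ± 87.8 in reduction, 1500.4 ± 206 in lipid loading and 6018 ± 344 in proliferation, and 1096 ± 26.6 in p27 starvation, against 5596 ± 622 in reduction, 6937 ± 130 in lipid loading and 7631 ± 182 in proliferation. plat, tissue plasminogen activator, averaged 195 ± 39.8 in p77 starvation and 1925 ± 114 in p77 proliferation, and the matrix protease adamts1 averaged 59.4 ± 10.7 in p77 starvation and 133 ± 19.3 in p77 proliferation. At p77 adamts1 averaged 125 ± 29.1 in reduction and 116 ± 27.3 in lipid loading. At p27 it averaged 28.6 ± 8.54 in starvation and 111 ± 23.4 in proliferation. Its p27 means were higher in reduction (213 ± 24.5) and lipid loading (331 ± 20.9).

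angptl2a, a secreted angiopoietin-like protein, had 172, 89.5 and 104 in starvation, against 252, 271 and 228 in reduction, 409, 343 and 338 in lipid loading and 691, 622 and 512 in proliferation at p77. The p27 values were 36.8, 24.3 and 14.5 in starvation, against 219, 149 and 219 in reduction, 2272, 2319 and 2358 in lipid loading and 1041, 882 and 1129 in proliferation. Lipid loading exceeded reduction by 3.56 ± 0.19 at p27 (adjusted p = 1.54e-14) and by 0.52 ± 0.19 at p77 (adjusted p = 0.0208). Against proliferation the sign of lipid loading was opposite at the stages (-0.78 ± 0.18, adjusted p = 0.00044, at p77 and 1.13 ± 0.17, adjusted p = 2.51e-06, at p27). ntn4, a netrin of basement membranes, averaged 385 ± 53.4 in p77 starvation, against 760.0 ± 27.2 in reduction, 1574 ± 166 in lipid loading and 3389.8 ± 113 in proliferation.

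Genes of cell death and the cell cycle were few. The initiator caspase casp10 had 93.4, 98.9 and 77.2 in starvation, against 212, 289 and 241 in reduction, 409, 444 and 492 in lipid loading and 366, 319 and 377 in proliferation at p77, and apaf1, the scaffold of the apoptosome, averaged 129.6 ± 35.3 in p77 starvation, against 211 ± 7.01 in reduction, 333 ± 61.7 in lipid loading and 269.6 ± 35.6 in proliferation. casp10 averaged 163 ± 20.8 in p27 starvation, against 434 ± 42.8 in reduction, 617 ± 5.34 in lipid loading and 467 ± 46.7 in proliferation. cdkn2a/b, of the family of cell cycle inhibitors that block CDK4 and CDK6 in mammals, averaged 182 ± 76.5 in p77 starvation, against 315 ± 34.8 in reduction, 383 ± 87 in lipid loading and 411 ± 42.7 in proliferation, with replicate 1 lowest at 94.4. It was lower at p77 than at p27 in proliferation (-1.16 ± 0.21, adjusted p = 9.04e-05), reduction (-0.90 ± 0.21, adjusted p = 0.00144) and lipid loading (-1.30 ± 0.21, adjusted p = 1.32e-05). In starvation the difference was -0.77 ± 0.22, adjusted p = 0.0118, and -0.46 ± 0.17, adjusted p = 0.0588, without replicate 1. It overlaps ndufb6 in the annotation, so part of its reads could belong to that gene.

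The rule used no ratio among the other 3 states, but their levels entered each of its ratios and its minimum, so the genes were not chosen independently of these values. The comparisons among them were tested across all 15683 genes passing the count filter, and the counts of the 100 are read only beside those of the ranked genes. In reduction against proliferation 68 of the 100 genes fell and 6 rose at p77, beside 31.9 and 36.8% of all genes tested and 39.5 and 34.4% of the ranked genes. At p27 58 fell and 13 rose, beside 29.3 and 32.4% of all genes and 38.1 and 28.8% of the ranked genes. In either direction 74 of the 100 genes passed at p77, beside 68.8% of all genes and 73.9% of the ranked genes, and 71 at p27, beside 61.7 and 66.9%, shares near the background at p77 and a little above it at p27. Both stages gave a fall in 53 genes, beside 32.2% of the ranked genes, and a rise in 3, beside 25%. The tests at p77 and p27 compared different libraries but shared an estimate of the spread. The rule drew on both stages, so the stages are not independent support. The median change was -0.95 at p77 and -0.42 at p27, against -0.04 and -0.09 over the ranked genes. Of genes with a symbol, the deepest falls at p77 were in jag1b, eno1b (-3.56 ± 0.16, adjusted p = 3.97e-17) and unc5db (-3.10 ± 0.11, adjusted p = 5.84e-19), and at p27 in atp1a3b, dio3a and jag1b (-2.47 ± 0.14, adjusted p = 1.15e-14). The largest rises with a symbol at p27 were in mlphb (1.57 ± 0.18, adjusted p = 2.74e-08), acta2 (1.09 ± 0.18, adjusted p = 1.06e-05) and adamts1 (0.89 ± 0.22, adjusted p = 0.000921), and at p77 in plxnb1b, csrp2 and nav1b (0.36 ± 0.15, adjusted p = 0.0338).

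In lipid loading at p77 55 of the 100 genes fell against proliferation and 19 rose, beside 30.6 and 35.2% of all genes and 39.9 and 28.2% of the ranked genes. At p27 45 fell and 31 rose, beside 30.4 and 34.3% of all genes and 40.9 and 28.1% of the ranked genes. The p27 counts lay within a few points of the ranked genes. In either direction 74 passed at p77, beside 65.7 and 68.1%, and 76 at p27, beside 64.8 and 68.9%. Both stages gave a fall in 41 genes, beside 31.8% of the ranked genes, and a rise in 13, beside 21.2%. The largest rises with a symbol were in csrp2, si:dkey-97m3.1 (1.52 ± 0.16, adjusted p = 3.47e-09) and cgref1 (1.29 ± 0.17, adjusted p = 1.35e-07) at p77 and in csrp2, acta2 and mafa (1.59 ± 0.20, adjusted p = 1.13e-07) at p27. The deepest falls with a symbol were in jag1b (-4.06 ± 0.15, adjusted p = 1.24e-18), unc5db (-3.27 ± 0.11, adjusted p = 2.94e-19) and dio3a at p77 and in dio3a, jag1b and atp1a3b (-1.92 ± 0.10, adjusted p = 3.73e-15) at p27.

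Set against reduction, lipid loading was higher in 52 of the 100 genes and lower in 6 at p77, beside 29.3 and 28% of all genes and 31.1 and 33.1% of the ranked genes. At p27 it was higher in 55 and lower in 13, beside 27.5 and 27.7% of all genes and 30.9 and 31.4% of the ranked genes. In either direction 58 passed at p77, beside 57.3% of all genes and 64.2% of the ranked genes, and 68 at p27, beside 55.1 and 62.2%. Both stages gave a higher level in 36 genes, beside 24.2% of the ranked genes, and a lower one in 3, beside 26.1%. Of genes with a symbol, shtn3 (2.54 ± 0.17, adjusted p = 1.75e-12, at p77 and 1.96 ± 0.17, adjusted p = 1.09e-10, at p27), si:dkey-97m3.1 (2.22 ± 0.16, adjusted p = 1.04e-11, at p77), lnx1 (2.17 ± 0.20, adjusted p = 4.31e-10, at p77) and filip1l (1.79 ± 0.15, adjusted p = 1.15e-10, at p27) had the largest rises beside angptl2a at p27, and mcamb (-0.84 ± 0.12, adjusted p = 8.76e-07) and c1qtnf5 (-0.32 ± 0.10, adjusted p = 0.00651) the deepest falls at p77 beside qdpra. The summed fibroblast markers and the share of the 100 genes in all counts were both higher in lipid loading than in reduction. The part of one in the other was not tested, and serpinh1b alone made up a large part of that share. LOC134002367, singled out after its values were seen, had 41369, 45353 and 44991 in p27 lipid loading, against 10013, 7982 and 8979.7 in reduction.

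**Figure D4:**
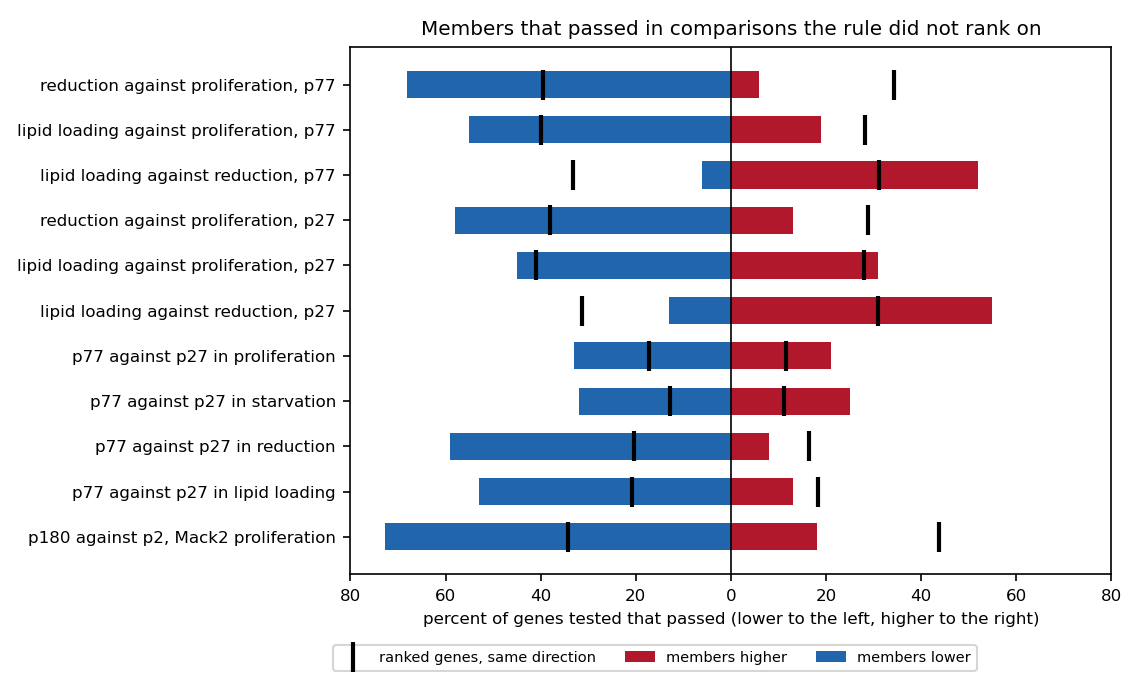
For each of 11 comparisons, bars give the percent of the starvation-low genes that passed at an adjusted p under 0.05, with genes higher in the group named before "against" to the right in red and lower ones to the left in blue. Black ticks give the same percent among the ranked genes; the blue bars run past their ticks in 9 of the comparisons and stop short of them in both comparisons of lipid loading against reduction.

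Between the stages more of these genes were lower than higher at p77 in reduction and lipid loading, by a wider margin than among the ranked genes. In proliferation falls also outnumbered rises, but in a proportion close to that of the ranked genes. The split in starvation depended on the fit. In p77 against p27 reduction 59 of the 100 genes fell and 8 rose, beside 16.1 and 14.7% of all genes and 20.4 and 16.5% of the ranked genes, with a median of -0.57 (0.02 over the ranked genes). In lipid loading 53 fell and 13 rose, beside 15.7 and 18.6% of all genes and 20.7 and 18.3% of the ranked genes, with a median of -0.45. In proliferation 33 fell and 21 rose, beside 15.1 and 10.5% of all genes and 17.3 and 11.5% of the ranked genes, with a median of -0.10. In starvation 32 fell and 25 rose, beside 10.2 and 11.1% of all genes and 12.8 and 11.1% of the ranked genes, with a median of -0.06. All of these states entered the rule's ratios at both stages, and starvation entered every ratio. The genes were thus not chosen independently of these comparisons, and nothing is read from the starvation counts. In either direction 67 genes passed in reduction, beside 30.9% of all genes and 36.9% of the ranked genes, 66 in lipid loading (34.3 and 39%), 54 in proliferation (25.6 and 28.8%) and 57 in starvation (21.3 and 24%). With those 6 libraries fitted alone 13 genes fell and 14 rose in starvation, and without p77 replicate 1 in the fit of all libraries 29 fell and 25 rose, 50 genes being called both with and without that library.

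filip1l and acta2 were among the 3 deepest falls of genes with a symbol in each state. filip1l was -4.42 ± 0.17, adjusted p = 1.77e-16, in lipid loading, -3.13 ± 0.17, adjusted p = 2.24e-13, in reduction, -3.07 ± 0.17, adjusted p = 1.44e-13, in proliferation and -2.05 ± 0.21, adjusted p = 4.21e-08, in starvation. acta2 was -3.36 ± 0.20, adjusted p = 6.85e-13, in lipid loading, -2.31 ± 0.20, adjusted p = 5.68e-10, in reduction, -1.60 ± 0.20, adjusted p = 4.34e-07, in proliferation and -3.04 ± 0.28, adjusted p = 8.08e-09, in starvation. Among named rises, dio3a was 1.25 ± 0.13, adjusted p = 3.75e-08, in proliferation and qdpra 1.41 ± 0.09, adjusted p = 6.58e-12, in starvation. angptl2a rose in starvation (2.22 ± 0.26, adjusted p = 4.35e-07) and fell in lipid loading (-2.67 ± 0.18, adjusted p = 8.43e-12), shtn3 rose in starvation (1.48 ± 0.21, adjusted p = 6.79e-06), and timp2a fell in reduction (-2.15 ± 0.11, adjusted p = 1.89e-14). The starvation libraries of both stages entered the rule, so the starvation values here are descriptions and their adjusted p is not read as support. Without p77 starvation replicate 1 they were -2.01 for filip1l, -2.71 for acta2 and 1.47 for qdpra. For angptl2a the value was then 1.92 and for shtn3 1.36.

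The stage difference of the responses was tested as an interaction, chosen after the data were seen. The response to reduction against proliferation was lower at p77 than at p27 in 43 of the 100 genes and higher in 8, beside 11.1 and 11.5% of all genes and 14.2 and 13.6% of the ranked genes. The response to lipid loading was lower in 45 and higher in 8, beside 9.83 and 13.7% of all genes and 12.9 and 15% of the ranked genes. In either direction 51 passed in reduction, beside 22.7 and 27.7%, and 53 in lipid loading, beside 23.6 and 27.9%. timp2a (-1.79 ± 0.14, adjusted p = 4.4e-10, in reduction) and unc5db (-2.11 ± 0.15, adjusted p = 2.62e-11, in lipid loading) were among them. These tests share the proliferation libraries of each stage.

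**Figure D5:**
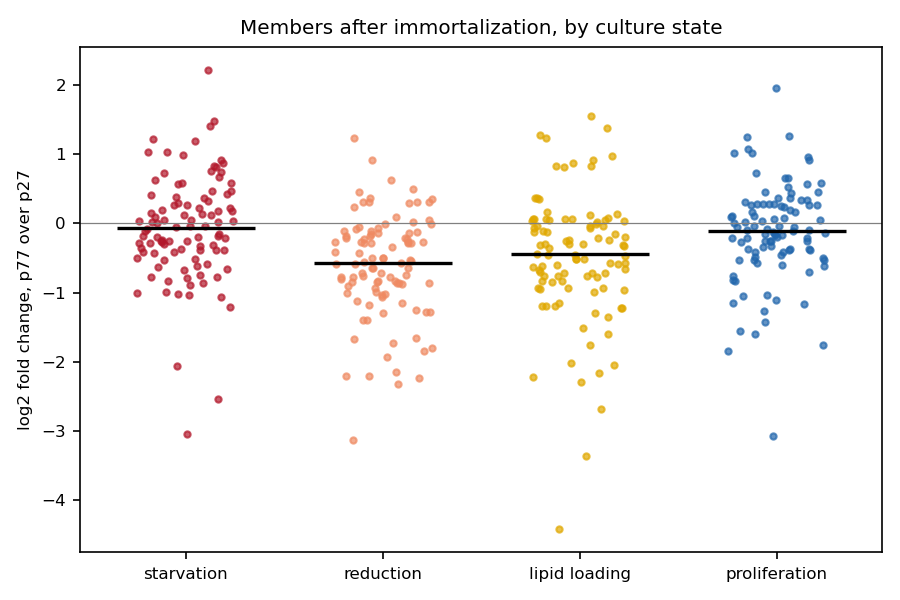
Log2 fold change of p77 over p27 for each of the 100 genes (points) in starvation, reduction, lipid loading and proliferation, with the median as a bar. The medians are -0.06, -0.57, -0.45 and -0.10, and the lowest point, filip1l in lipid loading, lies at -4.42.

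Mack2 took no part in the choice of the genes. In its proliferating cells 72 of 99 genes tested fell at p180 against p2 and 18 rose, beside 39.1 and 38.6% of 13805 genes tested and 34.3 and 43.7% of the ranked genes, with a median of -0.67 (0.07 over the ranked genes). In either direction 90 passed, beside 77.7% of all genes and 77.9% of the ranked genes. The remaining gene, glt8d2, did not pass the count filter in Mack2. acta2 had 3324, 3042, 2914 and 2926 normalized counts at p180, against 94034, 81065, 93322 and 92408 at p2, a change of -4.82 ± 0.06, adjusted p = 4.14e-18. plxnb1b (-5.17 ± 0.16, adjusted p = 1.2e-13) and vstm4a (-4.76 ± 0.48, adjusted p = 1.9e-07) fell as well, as did c1qtnf5 (-4.18 ± 0.06, adjusted p = 1.12e-17), and LOC134002367, singled out after its values were seen, had 222, 101, 121 and 110.5 at p180, against 39382, 38423, 44766 and 42721 at p2.

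serpinh1b had 110440, 112470, 108750 and 111740 at p180, against 300760, 325140, 325940 and 333140 at p2, and the 4 glycolysis genes fell by smaller amounts than acta2, with -1.02 ± 0.03, adjusted p = 9.14e-14, in ldha, -0.63 ± 0.04, adjusted p = 2.28e-10, in gpia, -0.47 ± 0.04, adjusted p = 1.15e-08, in eno1b and -0.28 ± 0.05, adjusted p = 9.01e-05, in pfkpa. cdkn2a/b fell as well (-2.05 ± 0.07, adjusted p = 6.33e-13). The largest rises with a symbol were in dio3a (3.85 ± 0.12, adjusted p = 1.88e-13), nav1b (1.43 ± 0.10, adjusted p = 2.08e-09) and unc5db (1.08 ± 0.05, adjusted p = 8.14e-12). csrp2 was -0.02 ± 0.05 (adjusted p = 0.709). The fourth p2 library carries batch label 1 and the other Mack2 libraries batch 2, and without it 71 genes fell and 18 rose. Summed fibroblast markers were 1237 to 1359 CPM at p180, against 4919 to 5474 CPM at p2, and their part in these falls was not tested.

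Chromosomes 3 and 22 held the most of the 100 genes, with 10 of 495 (2.02%) and 9 of 260 ranked genes (3.46%). All chromosomes together held 100 of 9062. Chromosome 24 held 5 of 167 (2.99%), and chromosome 17 held 0 of 330. LOC134004009 and LOC134004025 are neighbours on chromosome 3, as fgf2 and nudt6 are on chromosome 9, and c1qtnf5 and mcamb on chromosome 5 have 1 gene between them. LOC134004009 averaged 69.1 ± 19.6 in p77 starvation, against 436 ± 42.5 in reduction, 380.4 ± 70.5 in lipid loading and 186 ± 31.4 in proliferation, and LOC134004025 averaged 1328 ± 150.3 in p77 starvation, against 6782 ± 128 in reduction, 4380.1 ± 553 in lipid loading and 2214 ± 47.1 in proliferation. At p77 every reduction and lipid loading library of both genes lay above every proliferation library. At p27 LOC134004025 was likewise higher in reduction (7240 ± 168) than in proliferation (4687 ± 69.9). LOC134004009 was not, with 454 ± 26.9 in p27 reduction and 491 ± 32.5 in p27 proliferation, and these groups overlapped. In p27 lipid loading LOC134004009 averaged 725 ± 64.8 and LOC134004025 7827 ± 452. No source used here gives the genome build of the counts, so neighbours are those of the RefSeq assembly fScoSco1.1 and no positions are given.

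Of the first genes in the order whose product has no textbook role given here, zgc:152863 averaged 21.7 ± 10.8 in p77 starvation, against 125 ± 20.1 in reduction, 179 ± 27.7 in lipid loading and 173 ± 28.6 in proliferation. vstm4a averaged 73.6 ± 11 in p77 starvation, against 174 ± 10.5 in reduction, 505 ± 21 in lipid loading and 354 ± 28.5 in proliferation, and angptl5, of the angiopoietin-like family, averaged 138 ± 19.9 in p77 starvation, against 408 ± 60.4 in reduction, 340.3 ± 5.71 in lipid loading and 1066 ± 124 in proliferation. At p27 starvation lay 4.34-fold below the closest state in zgc:152863, 3.88-fold in vstm4a and 2.20-fold in angptl5. Reduction (475 ± 11.1) lay below lipid loading (776.5 ± 24.8) in angptl5 at p27, the reverse of p77.

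Among genes with a locus number alone, LOC134004494 stood next after zgc:152863 in the order and was chosen for naming after its values were seen. It had 149, 132 and 134 in starvation, against 484, 643 and 617 in reduction, 2407, 2061 and 1963 in lipid loading and 6641, 6485 and 6476 in proliferation at p77. Libraries of p27 gave 109, 132 and 125 in starvation, against 3011, 2399 and 2794 in reduction, 6067, 7156 and 6232 in lipid loading and 6829, 8089 and 6779.9 in proliferation. Its p27 starvation mean lay 22.4-fold below reduction, the closest state and the widest such gap of the 100 genes at either stage, against 4.20-fold at p77.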

How the data were processed

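RNA from 24 Mack1 and 8 Mack2 libraries was sequenced as paired reads from poly(A) RNA without strand information, per the labels' protocols. The authors deposited whole-number counts per gene and normalized counts (unit signal) made by dividing each library by a size factor, which ran from 0.621 to 1.34. FastQC, STAR, Salmon 1.10.1 and DESeq2 are named in the submitters' processing notes without their roles, and no source used here gives the genome build. Gene names came from the RefSeq table of fScoSco1.1, which matched all 24189 IDs and gave 14498 a symbol.

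The genes were chosen on group means of the deposited normalized signal. Their number, the gene lists and the naming rule were set with earlier results of these data known. Deposited counts were tested with edgeR 4.0.16 (filterByExpr, TMM, quasi-likelihood test, R 4.3.3, limma 3.58.1), with 1 fit for the 24 Mack1 libraries and 1 for the 8 Mack2 libraries. Values given as x ± y with an adjusted p are log2 fold changes ± SE, adjusted by Benjamini-Hochberg over all 15683 genes tested in Mack1 or 13805 in Mack2, with a threshold of 0.05. Contrasts of starvation against another state carry no test for the 100 genes, and comparisons of other groups in Mack1 use libraries that also entered the rule.

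In simulated counts 100 genes drawn at random from those passing the count filter were altered by 2-fold and another 100 by 4-fold. These were not the starvation-low genes. The fit of reduction against proliferation at p27 found 67% of those altered by 2-fold and 79% of those altered by 4-fold. It called 3 of 15207 unchanged genes. The Mack2 fit found 96 and 99% and called 19 of 13426. All other genes were simulated without a difference, whereas 61.7% of the genes tested passed in the real p27 comparison and 77.7% in Mack2. The adjusted p depends on that share, so these figures do not give the power or error rate of the real fits. Named were the first 15 genes with a symbol, the genes in a gene list, up to 3 genes with a symbol and the largest called fold in each direction of each tested comparison, the 2 genes on each side of the limit, and up to 4 other genes of a list by p. Of 22 lists, 5 held chosen genes, and lists of the endoplasmic reticulum without a chosen gene, among them its chaperones, were added to the text. Alternatives were DESeq2 1.42.0, other size factors, no filter, limma-trend, a replicate block, fits of the compared groups alone, other forms of the rule, and leaving out each library. Total counts of 16.9 to 32.0 M per library limit the precision of low genes.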

Additional observations from a re-analysis of the deposited data

Results flagged for a closer look

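Single Mack2 libraries stood apart from the other 3 of their group in 11 of 142 combinations of a gene and a group examined. Chance gives about 1 in 20 for each, but these combinations share the same 8 libraries and are not independent. At p180 the lowest library lay apart for mlphb (27.6 normalized counts), angptl2a (68.1), mbnl2 (1235) and ankha (2487). At p2 the lowest library lay apart for acta2 (81065), cdc42ep4b (237), sts (177) and creg1 (797), and the highest for dcxr (563), mafa (36.2) and nav1b (195).

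The responses of 6 genes with a symbol against proliferation passed in opposite directions at p77 and p27, with the difference between the stages tested by edgeR's interaction term. The p77 minus p27 log2 difference was -1.32 for kank3 in reduction. In lipid loading it was -1.01 for chrd, -0.56 for gpia, -1.91 for angptl2a, -0.94 for fgf2 and 2.16 for si:dkey-97m3.1. Calls of opposite sign also came from 3 tests of genes with a locus number alone. The share of the ranked genes with calls of opposite sign is not given here, so these counts cannot show whether such calls were unusually common.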

How the results depend on the processing

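No fold change of a single named gene that passed in the main fit turned its sign under the alternatives run. Differences near 0, such as that of acta2 between lipid loading and proliferation at p77, have no settled sign. The count of the 100 genes that differed between p77 and p27 in starvation was 27 with those 6 libraries fitted alone, against 57 in the fit of all Mack1 libraries; fewer libraries enter that fit, and its split of 14 higher and 13 lower turned round that of 25 higher and 32 lower. The calls of csrp2 (8 settings) and nav1b (5 settings) in reduction against proliferation at p77 were lost. Leaving out 1 library at a time gave 71 to 74 genes for reduction against proliferation at p77 and 62 to 71 at p27, 71 to 75 and 71 to 74 for lipid loading against proliferation, 52 to 58 and 58 to 65 for lipid loading against reduction, 61 to 67 between the stages in reduction, 62 to 66 in lipid loading, 43 to 48 in proliferation and 48 to 56 in starvation, and 88 to 90 in Mack2. The rule kept 81 to 99 of its genes without 1 of the 6 starvation libraries, with 81 kept without p77 replicate 1; libraries of other states were left out of the rule only together, by replicate number. It kept 95 with TMM-scaled values, 87 with group medians, 99 with a pseudocount of 10, 82 with a minimum mean of 50 and 77 with 200. Replicate numbers showed no pairing of the Mack1 libraries: same-number deviations had a median correlation of 0.0006, and 3 of 84 exceeded 0.1. Different-number deviations had a median of 0.0033, and 9 of 168 exceeded 0.1. In Mack2 1 of 4 same-number and 2 of 12 different-number correlations exceeded 0.1, with medians of 0.0143 and -0.0058. With a replicate block the counts were 72 and 70 in reduction, 74 and 76 in lipid loading, 57 and 67 between these, 65 in reduction, 65 in lipid loading, 53 in proliferation and 58 in starvation between the stages, and 89 in Mack2. Genes with few reads, 3 libraries a group and 1 lineage a line limit these results.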
